A study of Mus musculus with 6 samples.

Results

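Itgb4 encodes the β4 subunit of integrin α6β4, the laminin receptor at the core of hemidesmosomes, the adhesions that fasten epithelial cells to the basement membrane. The 8 genes described here are this receptor and the proteins it works with: Itgb4 and Itga6 (the receptor chains), Cd151 and Col17a1 (membrane partners), Plec and Dst (cytoplasmic linkers), and Lama3 and Lamb3 (chains of laminin-332, its ligand). They are 8 of the 23420 gene symbols in the count table, and 5 of the 8 (Itgb4, Itga6, Cd151, Plec and Dst) were among the 11608 genes with enough counts to be tested. The set was chosen on values of the comparison of β1-K794Q-GFP with β1-WT-GFP cells, Itgb4 being one of its largest differences, so the values of that comparison are given for the 8 genes as a description, with no test.

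The β4 chain pairs with the α6 chain alone, whereas α6 also pairs with Integrin-β1. In a hemidesmosome, the long cytoplasmic tail of β4 binds plectin (Plec), which holds intermediate filaments, while the epithelial form of dystonin (Dst), collagen XVII (Col17a1) and the tetraspanin CD151 complete the complex. Its ligand, laminin-332, is a secreted trimer that contains the chains encoded by Lama3 and Lamb3. EC also carry α6 integrins on their abluminal side, where the vessel basement membrane supplies mainly the laminins built on the chains of Lama4 and Lama5.

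The cells were eEnd2, a line of embryonic mouse EC, stably transfected with human Integrin-β1A that carries GFP in its extracellular part. The chimera was either wildtype (β1-WT-GFP) or had the substitution K794Q, a glutamine that mimics an acetylated lysine of the tail (β1-K794Q-GFP). Both were driven by a short β-actin promoter, both kinds of cell were sorted for GFP, and both retained the endogenous mouse Integrin-β1. Total RNA depleted of ribosomal RNA was sequenced from 3 confluent cultures of each, named WT-A to WT-C and K794Q-A to K794Q-C, which were separate cultures of sorted cells and not separate transfections as far as the labels state. Sorting gave a GFP-low and a GFP-high population, and the one used for each culture is not given in the labels.

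The mutated residue lies in a short motif of the Integrin-β1 tail that the β4 tail lacks. To show this, the last 60 coding bases of the mouse genes are given in their coding orientation, with capitals for the codons of every Asn-Pro-any-Tyr motif. The Itgb1 bases lie at chr8:128732026-128732085 and the Itgb4 bases at chr11:116008038-116008097, both on the plus strand of GRCm38, from the GENCODE transcripts with the longest complete coding sequence.
Itgb1: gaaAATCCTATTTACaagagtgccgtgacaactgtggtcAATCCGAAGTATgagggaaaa
Itgb4: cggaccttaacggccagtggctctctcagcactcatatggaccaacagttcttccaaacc
Itgb1 has 2 such motifs in its 798 codons, both within the bases shown, and the AAG in the second motif is the codon of the lysine named in K794Q. Itgb4 has 1818 codons in the transcript shown and 0 such motifs, as in each of its 6 transcripts with a complete coding sequence. The deposited table counts reads per gene, so it tells neither these transcripts apart nor the mutated codon.

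Sequencing gave 9589826 to 15287191 counts in a culture, and values below are counts scaled by library size (CPM, with TMM factors), listed for each group in the order A, B, C. At these depths 3 counts, taken as an approximate upper limit for 0 counts, are 0.209 to 0.3 CPM, and this limit covers counting error only. The exact Poisson 95% intervals given below reach further, to 0.355 CPM for the 0 counts of Lamb3 in culture K794Q-A. Genes whose level differed 2 times or more, with an unadjusted p of 0.05 or less in edgeR's quasi-likelihood test, are said here to be called or to pass both thresholds. This held for 603 of 11608 genes (5.19%), 404 of them upward in β1-K794Q-GFP cells (3.48%) and 199 downward (1.71%), and the Benjamini-Hochberg adjusted p was at most 0.05 for 21 (0.181%). In DESeq2 695 of the 11608 genes passed both thresholds, the background for the DESeq2 counts below. No such background is given for an unadjusted p under 0.05 alone, so nothing is read from counts at that cutoff. Culture WT-C stood apart from cultures A and B in several of the genes below, and values are given with and without it where it matters. All 12 endothelial markers were tested and 0 were called (0 at an unadjusted p under 0.05 and 0 in DESeq2), with a summed level of 6673 to 12498 CPM in β1-K794Q-GFP and 8037 to 9134 CPM in β1-WT-GFP cultures. Cdh5 and Pecam1 were at 1294.1 CPM or more in every culture, whereas Vwf was at only 0.262 to 2.41 CPM. Flt1 ran from 31.3 to 457 CPM in β1-K794Q-GFP and from 233 to 351 CPM in β1-WT-GFP cultures. Cldn5 had 267, 252 and 4.74 CPM in β1-WT-GFP cells and 17.5, 0 and 24.3 CPM in β1-K794Q-GFP cells. Its groups overlapped, and the log2 fold change was -3.64 (standard error 1.81). The summed level rests on the abundant markers.

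Itgb4 was low in every β1-WT-GFP culture and 9.76 times higher on average in β1-K794Q-GFP cultures. It lies at chr11:115974709-116008412 on the plus strand of GRCm38 (ENSMUSG00000020758.15). Its level was 12.0, 14.3 and 8.22 CPM in β1-WT-GFP cells, from 137, 143 and 118 counts. In β1-K794Q-GFP cells it was 109, 101 and 127 CPM, from 1128, 1025 and 1476 counts. The groups did not overlap, and the highest culture was 1.25 times the lowest among β1-K794Q-GFP cells and 1.74 times among β1-WT-GFP cells. The means were 112 ± 13.3 and 11.5 ± 3.07 CPM (SD, n = 3 each), and the log2 fold change was 3.29 (standard error 0.26). By the size of this change Itgb4 ranked 81 among the 11608 tested genes, and 78 of the 80 above it had a lower mean level than Itgb4. As a description, the log2 fold change lay between 3.11 and 3.47 in the fits that changed the filter, the normalization, the test or the block, or left out a culture.

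Of the 5 tested genes of the set, 1 passed both thresholds in the upward direction (background 3.48%), 0 in the downward direction (background 1.71%) and 1 passed after adjustment (background 0.181%). The gene that passed was Itgb4. All β1-K794Q-GFP cultures exceeded all β1-WT-GFP cultures for 1 of the 5, again Itgb4, beside 981 of all tested genes (8.45%). Since Itgb4 was selected on this comparison, nothing is read from these counts. The median log2 fold change of the 5 was 0.13, and that of all tested genes was -0.02. In bulk RNA, fewer cells with a transcript and less of it per cell cannot be told apart, which holds for every level given here.

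**Figure D1:**
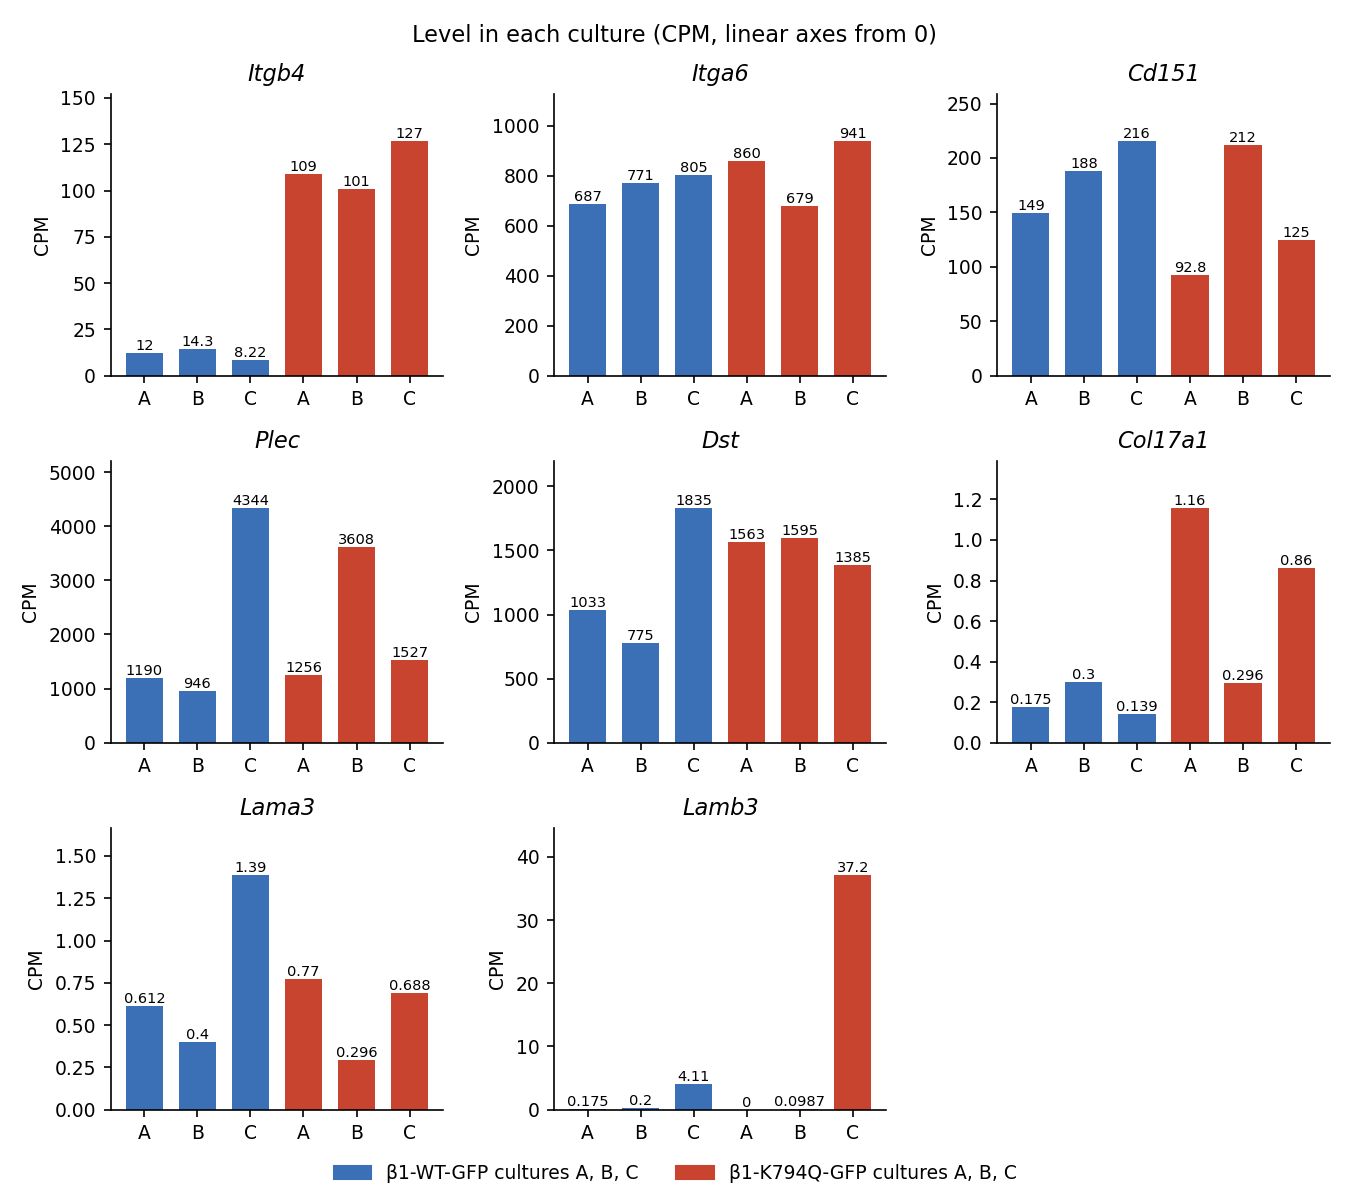
Level of each gene of the set in the 3 β1-WT-GFP cultures (blue) and the 3 β1-K794Q-GFP cultures (red), as bars in CPM on linear axes that start at 0 and differ between panels. Itgb4 is at 8.22 to 14.3 CPM in blue and 101 to 127 CPM in red, whereas Lamb3 has 1 tall bar, and Plec has 1 in each group.

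**Figure D2:**
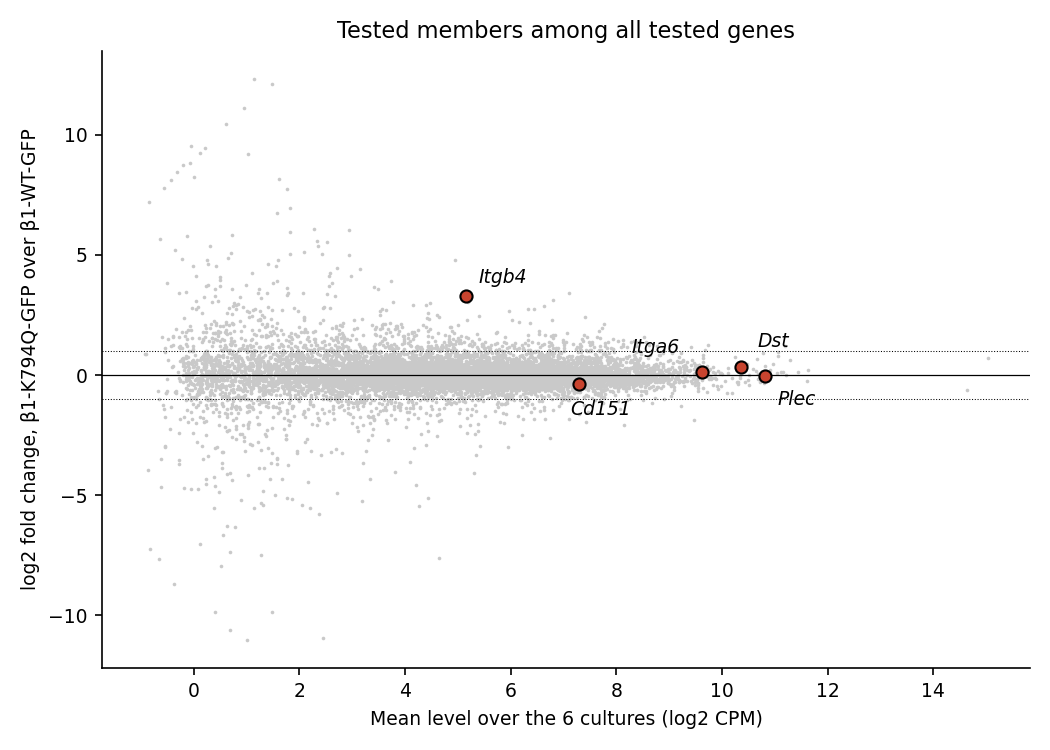
Each grey point is 1 of the 11608 tested genes, by its mean level over 6 cultures (log2 CPM, horizontal) and its log2 fold change of β1-K794Q-GFP over β1-WT-GFP (vertical), with dotted lines at a fold change of 2. Of the 5 marked genes, Itgb4 sits at 3.29 and the other 4 lie between -0.36 and 0.32, inside the dotted lines.

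Itga6, the partner chain of β4, stayed within a narrow range. At chr2:71745616-71858416 on the plus strand, it had 687, 771 and 805 CPM in β1-WT-GFP cells. It had 860, 679 and 941 CPM in β1-K794Q-GFP cells. The groups overlapped, with the lowest culture of all on the β1-K794Q-GFP side. The log2 fold change was 0.13 (standard error 0.23) and ranged from 0.03 to 0.26 over the other fits. Its highest culture was 1.17 times the lowest in β1-WT-GFP and 1.39 times the lowest in β1-K794Q-GFP cells.

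To compare the receptor chains with each other, levels were divided by the length of the merged exons. Per kb of exon Itga6 had 76.1 to 89.3 CPM in β1-WT-GFP and 75.2 to 104 CPM in β1-K794Q-GFP cultures, far above Itgb4 in both. Itgb4 had 1.17 to 2.04 CPM per kb in β1-WT-GFP cultures and 14.4 to 18.1 CPM per kb in β1-K794Q-GFP cultures. On this scale the level of Itgb4 was 2.24%, 2.39% and 1.31% of that of Itga6 in β1-WT-GFP cells, and 16.2%, 19.2% and 17.3% in β1-K794Q-GFP cells.

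The competing partner of α6 is Integrin-β1, whose own level varied between cultures. Itgb1 had 733, 915 and 1354 CPM in β1-WT-GFP cells and 1146.2, 2677.1 and 1180.4 CPM in β1-K794Q-GFP cells, with overlapping groups. These values include any chimera reads that aligned to mouse Itgb1, whose share was not tested. Itgb4 was 0.738% ± 0.334 of the Itgb1 level per kb in the wildtype cultures and 4.66% ± 2.16 in the others (SD, n = 3 each). The lowest β1-K794Q-GFP ratio, 2.2% in culture B, was the one with the highest Itgb1 and remained above the highest β1-WT-GFP ratio of 0.951%.

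**Figure D3:**
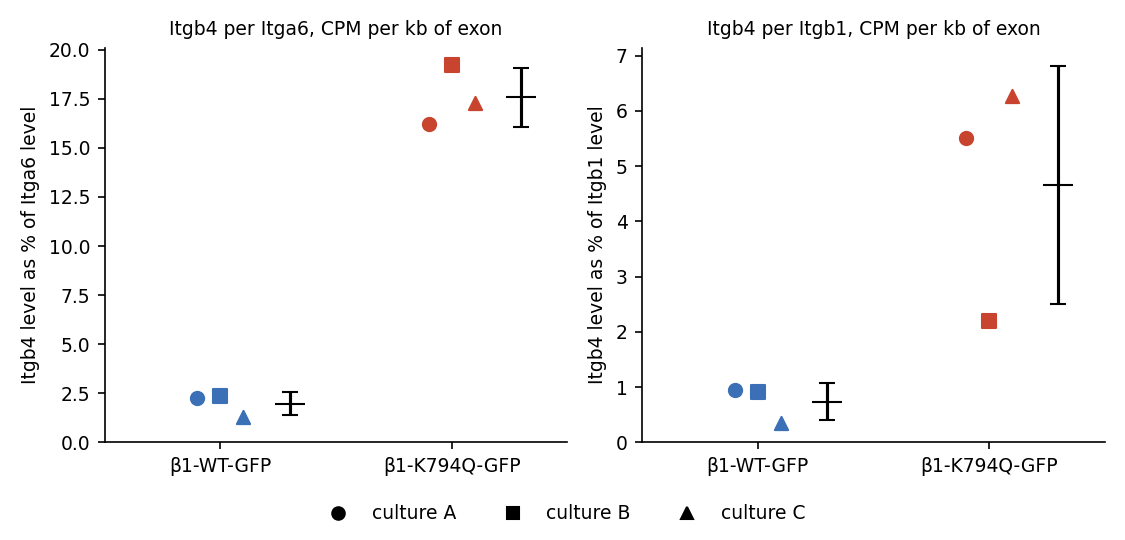
Itgb4 level as a percentage of the Itga6 level (left) and of the Itgb1 level (right), both in CPM per kb of exon, for cultures A (circle), B (square) and C (triangle), with the mean and SD (n = 3) as black marks. Against Itga6 the ratios are 1.31% to 2.39% in β1-WT-GFP and 16.2% to 19.2% in β1-K794Q-GFP cultures, and against Itgb1 they spread more widely.

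The membrane partners differed in how much was there. Cd151, the tetraspanin that associates with laminin-binding integrins, had 149, 188 and 216 CPM in β1-WT-GFP cells. In β1-K794Q-GFP cells it had 92.8, 212 and 125 CPM. Cultures A and C of β1-K794Q-GFP lay below every β1-WT-GFP culture, whereas culture B lay among them. The log2 fold change was -0.36 (standard error 0.34), and -0.76 without culture K794Q-B. Cd151 lies at chr7:141467392-141471473 on the plus strand.

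Col17a1, the transmembrane collagen of hemidesmosomes, was at the limit of detection. It had 2, 3 and 2 counts in β1-WT-GFP cells and 12, 3 and 10 counts in β1-K794Q-GFP cells, too few to be tested. In CPM the highest value was 1.16 (exact Poisson 95% interval 0.597 to 2.02) in culture K794Q-A. The lowest was 0.139 (0.0169 to 0.503) in culture WT-C. These intervals cover counting error only, and the groups overlapped, culture K794Q-B being level with culture WT-B. Col17a1 lies at chr19:47646344-47692094 on the minus strand.

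Both plakin linkers were well detected. Plec, at chr15:76170974-76232574 on the minus strand, had 1189.9, 946 and 4343.8 CPM in β1-WT-GFP cells. In β1-K794Q-GFP cells it had 1255.7, 3608.3 and 1526.6 CPM. One culture of each kind, WT-C and K794Q-B, stood above the rest, and the 4 remaining cultures lay between 946 and 1526.6 CPM. The log2 fold change was -0.02 (standard error 0.72). It was 1.01 without culture WT-C and -0.64 without culture K794Q-B, so that no direction can be given for Plec.

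Dst varied less. At chr1:33908225-34308661 on the plus strand, it had 1032.9, 775 and 1835.4 CPM in β1-WT-GFP cells. It had 1562.9, 1595.2 and 1384.8 CPM in β1-K794Q-GFP cells. The β1-K794Q-GFP cultures were within a factor of 1.15 of each other and lay above β1-WT-GFP cultures A and B but below culture C. The log2 fold change was 0.32 (standard error 0.37), and 0.76 without culture WT-C. Dst has an epithelial form that binds at hemidesmosomes and other forms that do not, and counts per gene do not tell which was present.

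Set in order by mean level per kb of exon, the tested genes ran from Plec through Itga6, Cd151 and Dst to Itgb4 in β1-K794Q-GFP cells. Col17a1, Lama3 and Lamb3 were below these in every culture and are left unordered, since Lamb3 exceeded the others in culture K794Q-C and was below both in K794Q-A and K794Q-B. The means per kb were 118 CPM for Plec, 91.6 for Itga6, 52.2 for Cd151, 36.8 for Dst and 16.0 for Itgb4. Between Plec and Itga6, Itga6 and Cd151, and Cd151 and Dst the values of single cultures overlapped, so these neighbours were not separated beyond their spread. Itgb4, at 14.4 to 18.1 CPM per kb, lay below every Dst value (33.6 to 38.8). In β1-WT-GFP cells the order of these 5 genes was the same, with Itgb4 last at a mean of 1.64 CPM per kb against 29.5 for Dst. There Plec overlapped with Itga6 and Itga6 with Cd151, whereas Cd151 (54.3 to 78.7 CPM per kb), Dst (18.8 to 44.6) and Itgb4 did not overlap with each other.

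On the ligand side, Lama3 was low in every culture. Lama3, the α chain of laminin-332 at chr18:12333819-12583013, had 7, 4 and 20 counts in β1-WT-GFP cells and 8, 3 and 8 counts in β1-K794Q-GFP cells. Its highest level was 1.39 CPM (exact Poisson 95% interval 0.851 to 2.15), in culture WT-C, and the groups overlapped. Per kb of exon it did not exceed 0.13 CPM in any culture.

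Lamb3, the β chain at chr1:193207699-193343878 on the plus strand, was near 0 in most cultures and clearly detected in others. It had 2, 2 and 59 counts in β1-WT-GFP cells and 0, 1 and 433 counts in β1-K794Q-GFP cells. The 433 counts came to 37.2 CPM (exact Poisson 95% interval 33.8 to 40.9) and the 59 counts to 4.11 CPM (3.13 to 5.3), while the interval for the 0 counts of culture K794Q-A reached 0.355 CPM. Culture C was thus the highest of its kind in both groups, and the other 4 cultures held 0 to 2 counts each. The filter on low counts left Lamb3 out, and a group mean would describe none of its cultures.

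Per kb of exon Lamb3 reached 5.63 CPM in culture K794Q-C and 0.621 CPM in culture WT-C, while Lama3 had 0.064 and 0.13 CPM per kb in the same cultures. The culture with the most Lamb3 was thus not the one with the most Lama3.

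For 4 of the 8 genes (Dst, Lamb3, Cd151 and Col17a1) RefSeq promoter windows on GRCm38.p6 were matched, from 250 bases before to 50 after a start site. Shown here are the first windows of Dst, at 775 CPM or more in every culture, and of Lamb3, with 0 to 2 counts in 4 of 6. They lie at chr1:34011345-34011644 and chr1:193301744-193302043, both on the plus strand, and capitals mark GC boxes (GGGCGG on either strand).
Dst: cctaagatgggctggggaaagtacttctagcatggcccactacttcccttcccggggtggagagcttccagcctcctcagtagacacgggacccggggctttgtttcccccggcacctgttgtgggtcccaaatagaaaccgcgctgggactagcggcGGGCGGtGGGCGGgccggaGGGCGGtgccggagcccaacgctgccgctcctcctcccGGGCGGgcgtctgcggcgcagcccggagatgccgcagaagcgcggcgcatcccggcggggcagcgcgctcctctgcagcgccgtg
Lamb3: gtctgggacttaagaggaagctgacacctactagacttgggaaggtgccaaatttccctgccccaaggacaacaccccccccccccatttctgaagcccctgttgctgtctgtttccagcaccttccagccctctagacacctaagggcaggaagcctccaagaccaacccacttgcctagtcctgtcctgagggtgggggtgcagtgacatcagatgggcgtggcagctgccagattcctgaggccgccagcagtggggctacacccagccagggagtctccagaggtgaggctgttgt
The first Dst window holds 4 GC boxes and the first of Cd151 holds 2, in a background of 35.7% of 32851 promoter windows with at least 1. The second windows of Dst (chr1:34160010-34160309) and Cd151 (chr7:141468539-141468838) hold 0. The Lamb3 and Col17a1 windows hold none, and Col17a1 holds 2 matches to TATAAA, a motif found in 13.6% of windows. Neither TGANTCA (AP-1, in 7.81% of windows) nor CACGTG (E-box, in 7.15%) was found in any window of the 4 genes. All motifs were searched on both strands, and a match or its absence describes the letters in the window only.

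Around the set, 91 further genes in 8 lists were examined: other laminin chains and laminin receptors, plakins, intermediate filament proteins, tetraspanins, basement membrane proteins, proteases that process laminin-332, and signalling partners of α6β4. Of these 58 were tested, 2 were called upward and 1 downward (5.17%, beside 5.19% of all tested genes), with a median log2 fold change of 0.08. None had an adjusted p of at most 0.05 in edgeR's quasi-likelihood test, while 10 had an unadjusted p under 0.05. DESeq2 gave 2 with an adjusted p of at most 0.05 (Lamb2 and Tll1), beside 477 of all tested genes. The share of all tested genes at an unadjusted p under 0.05 is not given here. Nothing is therefore read from counts at that cutoff, here or in single lists.

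Per kb of exon, the chains Lamc1 (126 to 384 CPM) and Lamb2 (23.7 to 53.3 CPM) were above Lama3 (at most 0.13 CPM) and Lamb3 (at most 5.63 CPM) in any culture. Among the 8 other laminin chains 5 were tested and 0 were called, with 1 at an unadjusted p under 0.05 and 0 called in DESeq2. Lama4 and Lama5, the α chains of vessel basement membrane, had log2 fold changes of 0.04 and 0.07. Lamb2, a β chain named here after its values were seen, had 144, 154 and 148 CPM in β1-WT-GFP cells and 254, 210 and 324 CPM in β1-K794Q-GFP cells. These groups did not overlap, but the change of 0.82 on the log2 scale (standard error 0.21) was under a fold change of 2, with an adjusted p of 0.228 in edgeR's test. Lamb1 and Lamc1 were highest in culture WT-C, at 537 and 3174.4 CPM.

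Of the 10 other laminin receptors all were tested, and 2 integrin α chains that pair with Integrin-β1 were called higher (background 3.48%). In 4 of the 10 the unadjusted p in edgeR's test was under 0.05 and the β1-K794Q-GFP cultures lay above all β1-WT-GFP cultures. Such a separation was seen in 8.45% of all tested genes, and the list was chosen with earlier results known, so nothing is read from this count. The 4 were Itga1, Itga2, Dag1 (log2 fold change 0.56) and Bcam (0.58), the last pair named after their values were seen. Itga1 had 3.94, 3.8 and 18.7 CPM in β1-WT-GFP cells and 28.7, 21.8 and 31.8 CPM in β1-K794Q-GFP cells (log2 fold change 1.63, standard error 0.67, adjusted p = 0.483 in edgeR's test). Itga2 had 2.01, 2.8 and 1.32 CPM in β1-WT-GFP and 9.92, 2.86 and 6.11 CPM in β1-K794Q-GFP cells (log2 fold change 1.62, standard error 0.56, adjusted p = 0.376 in the same test). The groups of Itga2 nearly met, K794Q-B being at 2.86 CPM and WT-B at 2.8 CPM. When each of the 6 cultures was left out in turn, Itga1 was called in 1 fit, that without culture WT-C, and Itga2 in 2, those without culture K794Q-B or culture WT-B. Itga3, the α chain of the other main receptor for laminin-332, had 80.1, 107 and 418 CPM in β1-WT-GFP and 313, 850 and 146 CPM in β1-K794Q-GFP cells. Its groups overlapped, and the log2 fold change was 1.11 (standard error 0.86), or 2.23 and past both thresholds with culture WT-C left out and 0.18 with culture K794Q-B left out. Sdc1 and Sdc4, named after their values were seen, also passed both thresholds with culture WT-C left out.

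Tll1, a protease of the BMP1 family that can cleave laminin-332 chains, was the 1 list gene called lower and the 1 of 3 proteases tested that was called. It had 340, 396 and 115 CPM in β1-WT-GFP cells and 50.9, 52.5 and 34.9 CPM in β1-K794Q-GFP cells. The groups did not overlap, and the level fell by 2.62 on the log2 scale (standard error 0.49, adjusted p = 0.12 in edgeR's test). Tll1 was called in all 13 fits made. Bmp1 itself, with 8.49 to 42.6 CPM in β1-WT-GFP and 11.6 to 17.8 CPM in β1-K794Q-GFP cultures, had a log2 fold change of -0.46.

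Vimentin was abundant, and epidermal keratins were not detectable at this depth. Of 11 intermediate filament genes 2 were tested, Vim and Nes, and 0 were called (0 at an unadjusted p under 0.05 and 0 in DESeq2). Nes, which encodes nestin, had a log2 fold change of 1.37 (standard error 0.92), or 3.02 and past both thresholds with culture WT-C left out. Vim, which encodes vimentin, had 1376.3, 1719.9 and 4684.8 CPM in β1-WT-GFP and 3550.3, 2382.8 and 1845.5 CPM in β1-K794Q-GFP cells. Krt5 and Krt14, the keratins that hemidesmosomes anchor in basal epithelium, had 0 counts in every culture, which allows up to about 0.3 CPM by the approximate limit above. Of 5 other plakins only Macf1, which links microtubules and actin, was tested, and its 3 β1-K794Q-GFP cultures (2415.3 to 4111.8 CPM) lay above the β1-WT-GFP cultures (1104.3 to 2278.4 CPM), and the log2 fold change was 0.94 (standard error 0.40), at an adjusted p of 0.503 in edgeR's test. Without culture WT-C Macf1 was at 1.29 and past both thresholds.

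Among 13 other tetraspanins 10 were tested and 0 were called, with 2 at an unadjusted p under 0.05 and 0 called in DESeq2. Those 2, Cd63 and Cd81, each had a log2 fold change of 0.85, and in both the groups did not overlap. Cd63 passed both thresholds without culture K794Q-B, and Cd81 without culture K794Q-A or K794Q-C. Of 18 other basement membrane genes 12 were tested, and of 21 signalling partners of α6β4 15 were tested. In the main fit 0 were called in either list, with 1 in each at an unadjusted p under 0.05 (Col4a5 and Shc1, both lower). In DESeq2 0 were called in either list. In other fits some genes passed both thresholds: Col18a1 and Prkca without culture WT-C, and Npnt and Irs1 without culture K794Q-C. Nid2 passed without culture K794Q-A or K794Q-C and with the likelihood ratio test. The tetraspanin Tspan8 also passed with that test. The genes named in this paragraph were named after their values were seen.

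**Figure D4:**
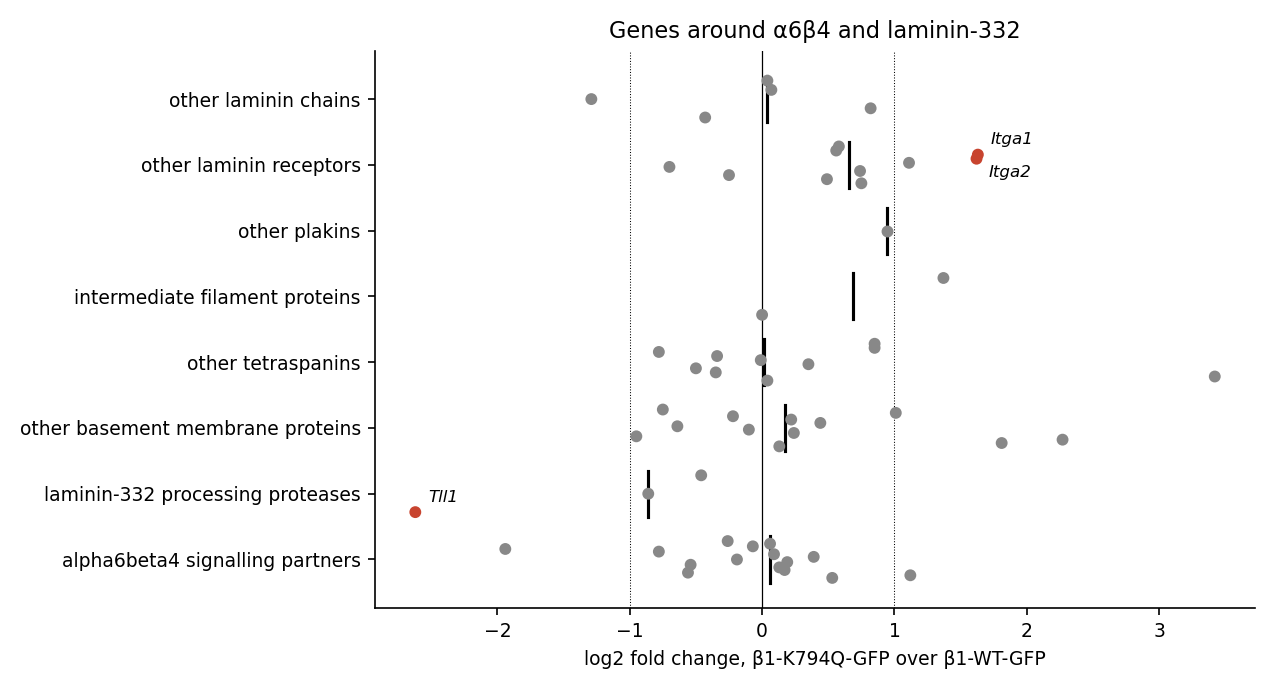
Each point is a tested gene of a list around α6β4 and laminin-332, by its log2 fold change of β1-K794Q-GFP over β1-WT-GFP, with the list median as a black bar, dotted lines at a fold change of 2 and genes past both thresholds in red. The red points are Itga1 and Itga2 among laminin receptors and Tll1 among proteases, and the other points past a dotted line did not reach the threshold for p.

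Markers of cells that carry α6β4 were examined beside Itgb4. Of 12 epithelial markers 0 were tested, 7 (Epcam, Cdh3, Ovol1, Esrp1, Krt5, Krt14 and Cldn4) were at 0 in every culture, and their summed level was 0 to 0.395 CPM in β1-K794Q-GFP and 0 to 0.626 CPM in β1-WT-GFP cultures. Of 7 Schwann cell markers 3 were tested and 0 were called (0 at an unadjusted p under 0.05 and 0 in DESeq2), Sox10 was at 0, and the summed level was 13.2 to 18.8 and 14.7 to 16.0 CPM. Most of this sum was Prx, at 10.3 to 16.5 CPM in β1-K794Q-GFP and 8.71 to 12.4 CPM in β1-WT-GFP cultures. Of 6 leukocyte markers 1 (Cd68) was tested and 0 were called (0 at an unadjusted p under 0.05 and 0 in DESeq2). Their summed level, almost all from Cd68, was 31.1 to 103 CPM in β1-K794Q-GFP and 37.6 to 88.6 CPM in β1-WT-GFP cultures. Of 8 mesenchymal markers 2 were tested and 1, Prrx1, was called lower (adjusted p = 0.0198 in edgeR's test), while Dcn, Lum and Thy1 were at 0. Their summed level was 2.58 to 3.75 CPM in β1-K794Q-GFP and 81.1 to 195 CPM in β1-WT-GFP cultures, a difference that rests on Prrx1. Without Prrx1 the sum was 2.98, 3.65 and 2.58 CPM in β1-K794Q-GFP cells and 0.613, 1.0 and 24.6 CPM in β1-WT-GFP cells, so that the groups overlapped. The part of this in the level of Itgb4 was not tested.

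To see whether the difference in Itgb4 was shared along the chromosome, the tested genes within 1 Mb of it were compared, by the distance between the lower coordinates of the genes. These 47 genes had a median log2 fold change of -0.15 and ranged from -1.26 to 1.60. The nearest on either side, Sap30bp and Galk1, had -0.09 (standard error 0.23) and 0.00 (standard error 0.40). Called were 1 gene higher (background 3.48%) and 2 lower (background 1.71%). The higher one, Llgl2, which encodes a cell polarity protein, lies at -150.7 kb from Itgb4 and had mean levels of 11.1 CPM in β1-K794Q-GFP and 3.66 CPM in β1-WT-GFP cells (log2 fold change 1.60, standard error 0.26, adjusted p = 0.0955 in edgeR's test). Gga3 (-1.05) and Ten1 (-1.08) were lower, with adjusted p values of 0.145 and 0.169 in the same test. Gga3 fell short of a threshold without culture WT-A or B, and Ten1 without culture K794Q-C or culture WT-C.

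**Figure D5:**
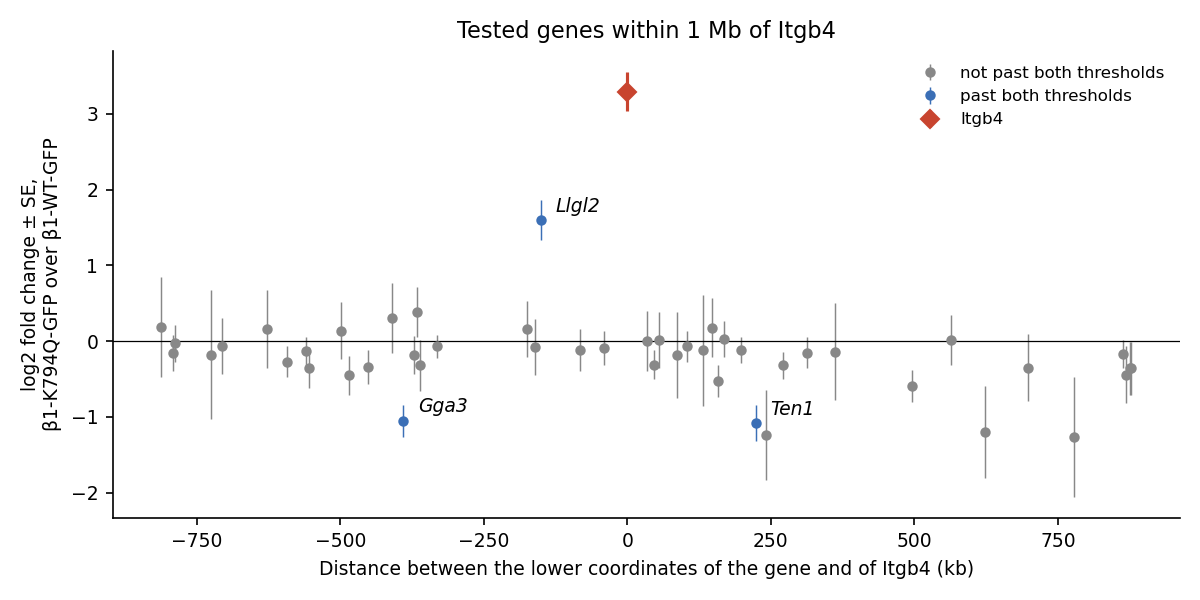
Log2 fold change of β1-K794Q-GFP over β1-WT-GFP with its standard error (vertical) for the 47 tested genes within 1 Mb of Itgb4, by the distance between their lower coordinate and that of Itgb4 in kb (horizontal). Itgb4 (red) is at 3.29, and of its neighbours Llgl2 at 1.60, Gga3 at -1.05 and Ten1 at -1.08 (blue) passed both thresholds.

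The pattern of Itgb4 over the 6 cultures was compared with that of 11483 genes by the root mean square distance between mean-centred log2 CPM. The most alike was Timeless, which encodes a replication fork protein, at a distance of 0.281. It had 44.2, 36.4 and 29.5 CPM in β1-WT-GFP and 280, 269 and 267 CPM in β1-K794Q-GFP cells. The next were Nap1l3, Mapkapk3, Gstt3 and 3110039M20Rik (distances 0.298 to 0.422), each at no more than 4.13 CPM in any culture. Their log2 fold changes in the main fit were 4.85, 5.67, 5.2 and 7.8, larger than the 3.29 of Itgb4. The log2 CPM used for the distance included a prior count, which shrinks the differences of genes with few counts. None of the other genes of the set was near: Dst ranked 2485, Itga6 3207, Plec 9234 and Cd151 9716 in likeness to Itgb4. The 6 points share 2 groups of 3, so that a gene with a like difference between the groups on this scale tends to be close.

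Some reads of the set may belong to overlapping genes. An exon of Itgb4 overlaps the antisense transcript B230344G16Rik by 130 bases, one of Cd151 overlaps Gm10575 by 193 bases, and one of Plec overlaps Parp10 on the same strand by 205 bases. Exons of Dst overlap the antisense Gm26788 by 651 bases and A930005N03Rik by 456, and one of Lama3, with its few counts, overlaps Gm29200 by 197. Whether the counting used strand is not given in the sources used here, so reads in these stretches cannot be assigned. Parp10 had 5617 counts over all cultures, against 9462 or more for Plec in each.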

How the data were processed

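Total RNA of 3 β1-WT-GFP and 3 β1-K794Q-GFP cultures was analysed. The authors deposited raw counts of reads per mouse gene symbol in 1 table, with 0 further columns of per-sample values. The submitters' processing notes name bcl2fastq 2.20.0, STAR 2.7.4a, HTSeq 0.9.1, edgeR 3.38.4 and mm10. The annotation and the strand setting of the counting are not given in the sources used here, and reads aligned to the human genome were not analysed here.

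For the re-analysis edgeR 4.0.16 was run in R 4.3.3: filterByExpr kept 11608 of 23420 genes, TMM scaled the totals, and the quasi-likelihood F-test (two-sided) compared the groups, as in the study's methods, with Benjamini-Hochberg adjustment over all tested genes and a common dispersion of 0.186. The procedure was run on simulated counts with set fold changes, which did not model single outlying cultures. Nothing is read from that run here. Alternatives were no filter, at least 10 counts in every culture, RLE normalization, edgeR's likelihood ratio test, DESeq2 1.42.0, a block for the letter, and fits without 1 culture at a time. Positions and exon lengths came from GENCODE M21 (GRCm38), where 21737 symbols matched 1 gene, and tables were made with Python 3.11.15, pandas 2.3.3, numpy 2.4.6 and scipy 1.17.1.

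The members and lists were chosen with earlier results of these data known. Genes named were the 8 members, list genes past both thresholds, Itga3, Itgb1, defining markers, genes past both thresholds or nearest within 1 Mb of Itgb4, and the 5 genes with at least 1 CPM most like Itgb4. A further gene of the naming rule is not reported here. Other list genes were named after their values were seen. Where the labels name separate cultures but not separate transfections, p-values measure the spread between those cultures only.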

Additional observations from a re-analysis of the deposited data

How the results depend on the processing

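The log2 fold change of Itgb4 ranged from 3.11 to 3.47 over the alternatives, from which nothing is read since Itgb4 was selected on this comparison. The 603 genes past both thresholds became 916 with no filter on low counts and 501 to 992 when a culture was left out, with 942 without culture K794Q-B and 992 without culture WT-C. The 21 genes with an adjusted p of at most 0.05 became 4 with at least 10 counts in every culture, 318 with the likelihood ratio test and 477 with DESeq2 (1 with the replicate block). Leaving out a culture gave 0 to 125 such genes, with 0 without culture K794Q-A or C or culture WT-A, 1 without culture WT-B and 125 without culture K794Q-B. The 3 genes called in the lists became 5 with the likelihood ratio test and 1 to 9 when a culture was left out, with 1 without culture WT-A, 5 without culture K794Q-C and 9 without culture WT-C. The median log2 fold change of the tested members, 0.13, ranged from 0.07 to 0.76 over these fits, 0.76 being the value without culture WT-C. The cause of these changes was not tested.

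The letters A, B and C are shared between the groups. The correlations of the deviations of same-lettered cultures from their group means were 0.0947, 0.0548 and 0.0952, none over 0.1, so the letters were not taken to pair the cultures. With the letter as a replicate block 571 genes passed both thresholds, as did 3 list genes (Itga1, Tll1 and, in place of Itga2, Irs1), and the member median was 0.16.

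Counts of 12 or fewer for Col17a1 and of 20 or fewer for Lama3 limit what can be said of these genes to levels near the limit of detection. For Lamb3 the 2 or fewer counts in 4 cultures leave its presence there undecided, whereas 433 counts in culture K794Q-C and 59 in culture WT-C showed it clearly.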
